A study of Mus musculus with 24 samples.

Results

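The genes described here are 8 transcripts that ATF4 is known to induce when cells run short of amino acids or are otherwise stressed: *Asns*, *Psat1*, *Phgdh*, *Chac1*, *Sesn2*, *Ddit4*, *Nupr1* and *Trib3*. They were chosen by name, with earlier results of these data known. Each was found once among the 54733 genes of the deposited liver tables, in all 24 RNA-seq libraries. The libraries were made from poly(A)-tailed RNA of livers of male C57BL/6 mice, with 2 libraries for each of 2 genotypes at CT2, CT6, CT10, CT14, CT18 and CT22. CT is circadian time in hours, projected for mice kept in constant darkness. WT mice carried the intact *Bmal1* gene. ΔRRE mice lacked both ROR-response elements in the 5'-UTR region of *Bmal1* on both alleles, a deletion made with CRISPR-Cas9 in C57BL/6 J embryos and present in every tissue. Both genotypes had free access to chow, and no drug or diet was given. The methods of the study name 1 ΔRRE line as the one used unless otherwise stated, so the ΔRRE livers stand for 1 line. For mouse tissues in general they give males over a range of adult ages, taken from the second day of darkness on, without naming these libraries. The comparison asks whether genes outside the clock keep their daily course and level when *Bmal1* mRNA no longer oscillates.

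ATF4 is a transcription factor whose synthesis increases when a stress kinase such as GCN2 or PERK phosphorylates the translation factor eIF2α, so its activity is set largely by translation and not by its mRNA. It binds composite C/EBP-ATF elements and induces enzymes that make non-essential amino acids, amino acid transporters, aminoacyl-tRNA synthetases and feedback regulators. The liver is the main organ of amino acid breakdown, and its intake of amino acids follows feeding. ASNS makes asparagine, while PHGDH and PSAT1 catalyse consecutive steps of serine synthesis. CHAC1 cleaves glutathione. Sestrin 2, from *Sesn2*, senses leucine, and REDD1, from *Ddit4*, acts through the TSC complex; both restrain the kinase mTORC1. NUPR1 is a small stress-induced chromatin protein, and TRIB3 is a pseudokinase that binds AKT and ATF4.

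The core of the C/EBP-ATF element was searched in the RefSeq windows from 250 bases before to 50 bases after each gene start (GRCm38.p6), as the letters TGATGNAA on either strand. It was present in 4 of the 9 windows of the 8 genes, each of a different gene, and in 3.97% of the 32851 windows of all genes. The matches are shown 5' to 3' on the strand that carries the motif, with the motif in capitals, because only these 4 of the 9 start windows hold it.
Asns, chr6:7693215-7693242, minus strand: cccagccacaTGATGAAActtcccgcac
Chac1, chr2:119351039-119351066, minus strand: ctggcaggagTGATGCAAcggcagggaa
Nupr1, chr7:126625563-126625590, plus strand: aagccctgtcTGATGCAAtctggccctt
Trib3, chr2:152344029-152344056, plus strand: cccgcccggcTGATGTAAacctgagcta

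The motif of *Asns* lay on the strand of the gene, from 23 to 16 bases before the RefSeq start, in a position that GENCODE M21 counts as exonic in a longer transcript. That of *Chac1* lay on the opposite strand, from 193 to 186 bases before the start and upstream of the GENCODE gene. The motif of *Nupr1* lay on the opposite strand, from 110 to 103 bases before the RefSeq start and within an exon of GENCODE transcripts that begin farther upstream. The motif of *Trib3* lay on the opposite strand, from 14 to 21 bases after the RefSeq start and 7 bases upstream of the GENCODE gene. The letters were not found in these windows of *Psat1*, *Phgdh*, *Sesn2* or *Ddit4*. The E-box CACGTG, the palindromic site of BMAL1 and CLOCK, was found only in the window of *Nupr1* (7.15% of all windows), and the D-box core TTATGNAA in none of the 8 genes (3.38% of all windows). These matches describe letters in a window and not binding.

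In the GENCODE M21 annotation of GRCm38, *Asns* spans chr6:7675169-7693254, *Psat1* chr19:15904678-15947337, *Phgdh* chr3:98313170-98339990, *Sesn2* chr4:132492032-132510501, *Ddit4* chr10:59949669-59951834, *Nupr1* chr7:126623249-126630861 and *Trib3* chr2:152337422-152344032, all on the minus strand. *Chac1* spans chr2:119351229-119354381 on the plus strand. *Sesn2* overlaps a non-coding gene on its own strand, so a part of its reads could have been assigned to that gene. *Psat1* overlaps a processed pseudogene on the other strand. The libraries were directional, so for *Psat1* this could occur only if the strand was not used in the quantification, which is not stated.

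The values are FPKM, fragments scaled to transcript length and to the mapped fragments of the library, and summed to between 554170 and 624746 per library. Read counts were not used here, so the depth behind each value is unknown and no counting error is given. *Bmal1*, listed as *Arntl*, ranged from 0.0919 to 13.2 FPKM in WT and from 2.1 to 4.21 FPKM in ΔRRE. Its 24 h wave was called as different between the genotypes, by a small margin (adjusted p = 0.0463 by limma). Of the 9 hepatocyte markers, all were expressed in every library, with sums from 36150 to 54200 FPKM. Of 12 pancreatic acinar markers, 7 were listed at 0 in all libraries, and only *Cela1* and *Cela2a* reached 1 FPKM in any. Sums of 6 erythroid markers ranged from 465.8 to 1537 FPKM in WT and from 536.9 to 4451 FPKM in ΔRRE, and those of 20 acute-phase genes from 8291 to 15120 FPKM in WT and from 8939 to 26730 FPKM in ΔRRE. In bulk liver, fewer cells of a type and less RNA per cell cannot be told apart.

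The 8 genes differed in abundance. *Ddit4* was the highest, with a mean of 5.24 ± 2.75 FPKM (SD, n = 24), followed by *Trib3* at 3.31 ± 2.97, *Sesn2* at 1.89 ± 0.733, *Asns* at 1.85 ± 1.49 and *Chac1* at 1.09 ± 1.20 FPKM. Each of these means lay within 1 SD of the next, taking the larger SD of the pair. *Nupr1* (0.502 ± 0.347 FPKM), *Psat1* (0.207 ± 0.180 FPKM) and *Phgdh* (0.0604 ± 0.0657 FPKM) had means under 1 FPKM. The first 5 therefore passed the limit of 1 FPKM on average, which 11244 genes reached, and were fitted with limma on log2(FPKM + 0.1), while the other 3 did not. The mRNA of *Atf4* itself, at 46.7 ± 7.86 FPKM (SD, n = 24), was more abundant per length than any of them.

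**Figure D1:**
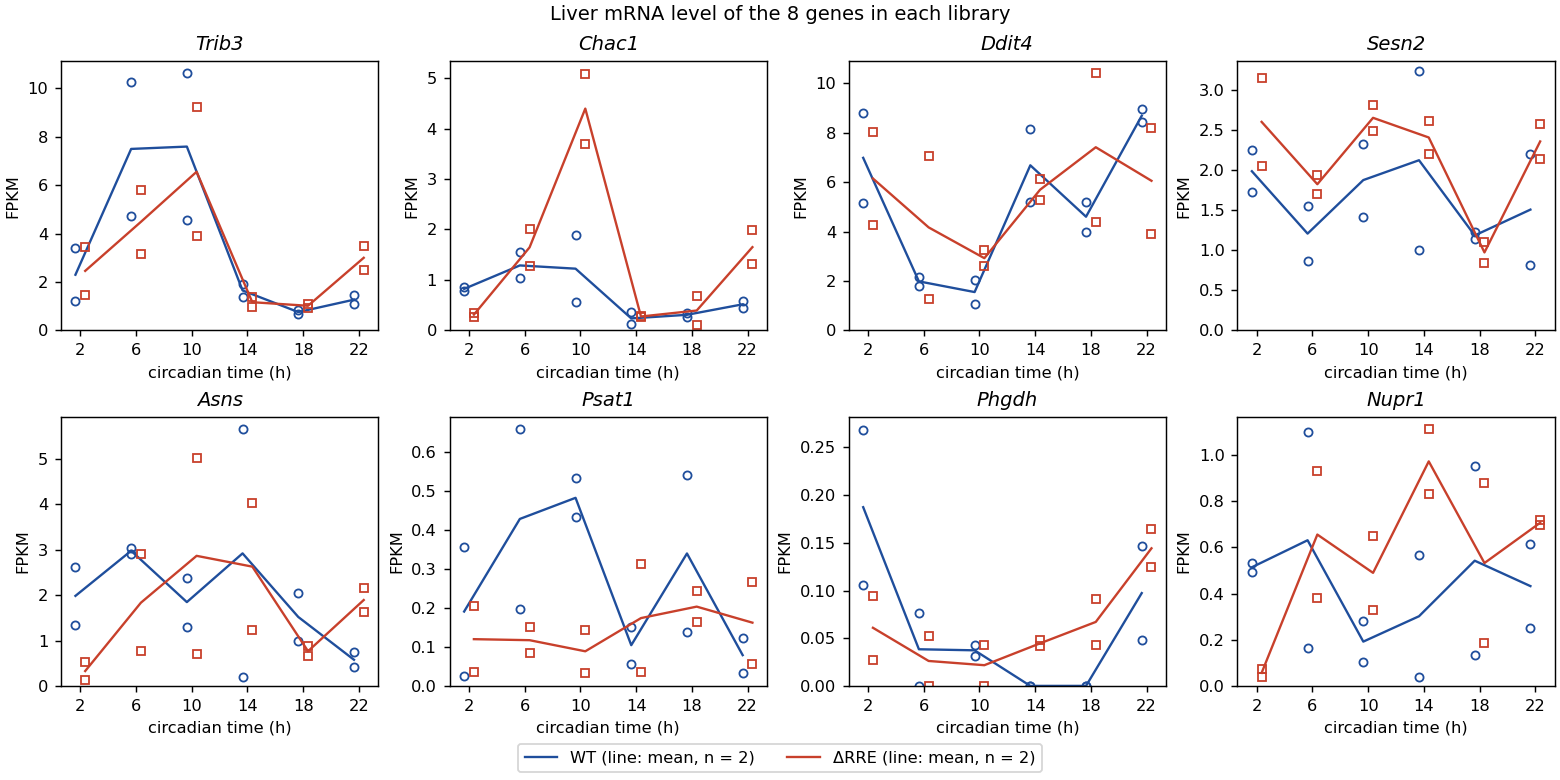
FPKM of the 8 genes (vertical axes, linear, each from 0) against circadian time in hours, with 1 point per library, WT as blue circles and ΔRRE as red squares, and lines through the means of 2 libraries. *Trib3* was highest at CT6 and CT10 and *Ddit4* lowest there, while *Asns*, *Psat1* and *Nupr1* show wide gaps between libraries of the same group.

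A daily wave was tested by harmonic regression with a 24 h period, and a gene was called at a Benjamini-Hochberg adjusted p under 0.05 over all 11244 genes. With both genotypes in 1 fit of 24 libraries, 3 of the 5 tested members were called, *Trib3*, *Chac1* and *Ddit4*, where 30.6% of all genes were called. *Trib3* and *Chac1* peaked in the subjective day and *Ddit4* in the late subjective night. In WT alone the same 3 of 5 were called (10.3% of all genes), and in ΔRRE alone 0 of 5 (4.57%). In ΔRRE, 1 of the 5 had an unadjusted p under 0.05, *Trib3* with 0.0151, as had 22.6% of all genes. By the 3 criteria of the study's methods, with the p of this fit under 0.3 in place of that of BIO_CYCLE, the same 3 members were rhythmic in WT (37% of all genes), and 5 of 5 in ΔRRE (35.4%). The count in ΔRRE was 2 without CT10 replicate 1, and 3 without CT2 replicate 1, CT10 replicate 2 or CT18 replicate 1. That a gene passed in 1 genotype only does not show a difference. When the difference itself was tested with limma, the wave was called as different in 0 of the 5 members. Of all genes 0.00889% were called, 1 gene in all, which was *Bmal1*, and 319 had an unadjusted p under 0.05. Even the call of *Bmal1* was lost, with 0 genes called, with 0.01 FPKM added before the logarithm and without either WT library of CT2. The 0 of the members therefore does not show that their waves are alike.

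*Trib3* had the clearest daily course. In WT its FPKM were 3.39 and 1.20 at CT2, 10.3 and 4.72 at CT6, 10.6 and 4.56 at CT10, 1.90 and 1.39 at CT14, 0.653 and 0.849 at CT18, and 1.46 and 1.07 at CT22. In ΔRRE they were 3.44 and 1.46 at CT2, 5.79 and 3.17 at CT6, 9.21 and 3.90 at CT10, 1.37 and 0.949 at CT14, 0.930 and 1.09 at CT18, and 3.49 and 2.5 at CT22. All 4 WT libraries of CT6 and CT10 lay above the other 8 WT libraries, whereas in ΔRRE the ranges of 3.17 to 9.21 and 0.930 to 3.49 FPKM met. The mean was 10.1 times higher at the highest time point, CT10, than at the lowest, CT18, in WT and 6.48 times in ΔRRE, with the same highest and lowest time points. On the log2 scale the amplitude was 1.27 ± 0.20 (SE) with a peak at CT6.95 ± 0.61 h over both genotypes (adjusted p = 0.000215 by limma). It was 1.59 ± 0.22 in WT (adjusted p = 0.00307) and 0.98 ± 0.29 in ΔRRE (adjusted p = 0.127). The difference between these waves had an unadjusted limma p of 0.169, and an exact permutation test, which redrew the genotype of the 4 libraries within every time point in all 46656 ways, gave a p of 0.119. Without any 1 library the call over both genotypes held, with adjusted p from 4.91e-05 to 0.00071.

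*Chac1* was low at CT14 and CT18 in both genotypes and had its highest WT means at CT6 and CT10. The ΔRRE mean was highest at CT10, about the same at CT6 and CT22 (1.64 and 1.65 FPKM), and also low at CT2. In WT its FPKM were 0.774 and 0.866 at CT2, 1.03 and 1.54 at CT6, 0.561 and 1.88 at CT10, 0.354 and 0.115 at CT14, 0.263 and 0.349 at CT18, and 0.581 and 0.447 at CT22. In ΔRRE they were 0.349 and 0.268 at CT2, 1.28 and 2.01 at CT6, 3.70 and 5.09 at CT10, 0.263 and 0.281 at CT14, 0.0999 and 0.682 at CT18, and 1.99 and 1.31 at CT22. The highest mean over the lowest was 5.48 in WT and 16.2 in ΔRRE. The 24 h amplitude was 0.98 ± 0.29 (SE, log2) with a peak at CT6.34 ± 1.14 h over both genotypes (adjusted p = 0.0363 by limma). This call rested on small margins. It was lost, with adjusted p from 0.0538 to 0.0864, without any 1 of 6 libraries: WT CT6 replicate 2, WT CT10 replicate 2, WT CT18 replicate 1, ΔRRE CT6 replicate 2, ΔRRE CT10 replicate 1 and ΔRRE CT18 replicate 1. In WT alone the adjusted p was 0.0438, and it was above 0.05 without 11 of the 12 WT libraries, all but CT10 replicate 2, with a highest value of 0.107.

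*Chac1* was also called, as 1 of the 5 tested members, for a 12 h wave beside the 24 h terms (3.05% of all genes). Over both genotypes the 12 h amplitude was 1.0 ± 0.22 (SE, log2), about as large as that of the 24 h wave. The fitted peaks lay at CT9.12 ± 0.41 h and 12 h later (adjusted p = 0.0316 by limma). The ΔRRE libraries of CT22, at 1.99 and 1.31 FPKM, stood above those of CT18 and of CT2. The WT libraries of CT22, at 0.581 and 0.447 FPKM, stood above those of CT18 but below those of CT2. A second peak at CT22 was thus seen in ΔRRE only, although the fit shared its wave between the genotypes. Without any 1 of the 6 ΔRRE libraries of CT2, CT10 and CT22 the adjusted p was between 0.0509 and 0.0734. The 12 h terms of *Sesn2* (0.46 ± 0.13, adjusted p = 0.0894) and *Trib3* (0.59 ± 0.17, adjusted p = 0.103) did not pass, although *Sesn2* passed without WT CT14 replicate 2 (adjusted p = 0.0361) or WT CT22 replicate 2 (adjusted p = 0.0477).

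*Ddit4* ran in the opposite phase. In WT its FPKM were 5.15 and 8.82 at CT2, 1.78 and 2.17 at CT6, 1.05 and 2.04 at CT10, 5.21 and 8.15 at CT14, 3.99 and 5.21 at CT18, and 8.95 and 8.43 at CT22. In ΔRRE they were 4.27 and 8.03 at CT2, 1.25 and 7.08 at CT6, 2.59 and 3.25 at CT10, 5.27 and 6.12 at CT14, 10.4 and 4.39 at CT18, and 8.21 and 3.90 at CT22. The 4 WT libraries of CT6 and CT10 reached at most 2.17 FPKM, below the lowest other WT library at 3.99 FPKM. In ΔRRE replicate 2 of CT6 lay at 7.08 FPKM, among the libraries of the other time points. The amplitude was 0.84 ± 0.19 (SE, log2) with a peak at CT20.5 ± 0.88 h over both genotypes (adjusted p = 0.00645 by limma), and this call held without any 1 library. It was 1.08 ± 0.24 in WT (adjusted p = 0.0314) and 0.60 ± 0.27 in ΔRRE (adjusted p = 0.333). The WT call was lost, with adjusted p from 0.0544 to 0.0814, without replicate 1 of CT2 or without either library of CT6, CT10 or CT22. The waves were not told apart between the genotypes, with an unadjusted limma p of 0.416 and an exact permutation p of 0.434.

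**Figure D2:**
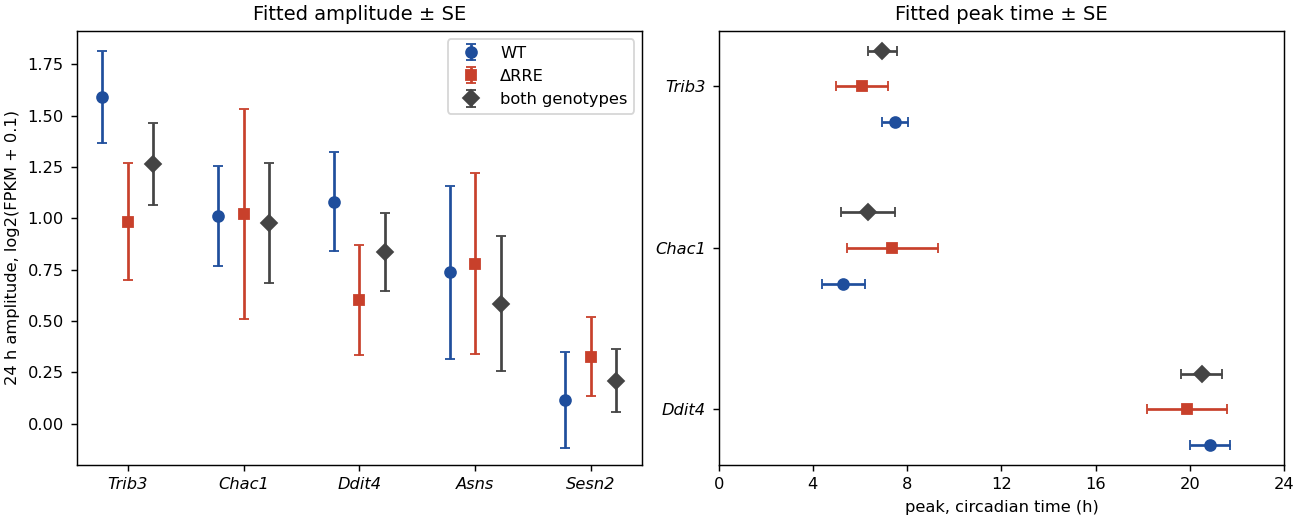
Left, fitted 24 h amplitude on the log2(FPKM + 0.1) scale (vertical axis) of the 5 tested genes, and right, fitted peak in circadian time (horizontal axis, hours) of the 3 genes called over both genotypes, with bars of 1 SE; WT is blue (12 libraries), ΔRRE red (12 libraries) and both genotypes together grey (24 libraries). The fitted peaks of *Trib3* and *Chac1* lay between CT5.29 and CT7.48 in every fit, and those of *Ddit4* between CT19.9 and CT20.8.

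Over both genotypes the time points ranked CT10, CT6, CT2, CT22, CT14 and CT18 for *Trib3*, with means from 7.08 ± 3.35 down to 0.881 ± 0.183 FPKM (SD, n = 4). They ranked CT10, CT6, CT22, CT2, CT18 and CT14 for *Chac1*, from 2.81 ± 1.99 to 0.253 ± 0.1 FPKM. For *Ddit4* the order was CT22, CT2, CT14, CT18, CT6 and CT10, from 7.37 ± 2.34 to 2.23 ± 0.930 FPKM. In each of these orders the libraries of every pair of neighbouring time points overlapped.

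No 24 h wave was called for *Sesn2*, with an amplitude of 0.21 ± 0.15 (SE, log2; adjusted p = 0.533 by limma). In WT its FPKM were 1.72 and 2.25 at CT2, 1.55 and 0.864 at CT6, 2.33 and 1.42 at CT10, 3.24 and 1.01 at CT14, 1.14 and 1.22 at CT18, and 2.20 and 0.809 at CT22. In ΔRRE they were 3.15 and 2.05 at CT2, 1.94 and 1.71 at CT6, 2.82 and 2.49 at CT10, 2.61 and 2.20 at CT14, 1.10 and 0.844 at CT18, and 2.13 and 2.58 at CT22. Both genotypes had their lowest mean at CT18, at 1.18 ± 0.0566 FPKM for WT and 0.971 ± 0.181 FPKM for ΔRRE (SD, n = 2).

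*Asns* varied widely between libraries of the same group. At CT14 its WT libraries held 0.185 and 5.66 FPKM, the lowest and the highest value of all WT libraries, and at CT10 its ΔRRE libraries held 5.03 and 0.709 FPKM. Its amplitude over both genotypes was 0.58 ± 0.33 (SE, log2; adjusted p = 0.348 by limma). The lowest, median and highest values were 0.185, 1.70 and 5.66 FPKM in WT and 0.137, 1.06 and 5.03 FPKM in ΔRRE.

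The serine enzymes *Psat1* and *Phgdh* and the stress protein *Nupr1* stayed under the limit of 1 FPKM on average. *Psat1* lay between 0.0261 and 0.659 FPKM in WT, with a median of 0.175, and between 0.0334 and 0.313 FPKM in ΔRRE, with a median of 0.147. *Phgdh* was listed at 0 in 5 of 12 WT and 2 of 12 ΔRRE libraries and reached at most 0.269 and 0.164 FPKM. All 4 WT libraries of CT14 and CT18 were at 0 for *Phgdh*, while the 4 ΔRRE libraries of these times held from 0.0414 to 0.0908 FPKM. *Nupr1* lay between 0.0377 and 1.10 FPKM in WT and between 0.0379 and 1.11 FPKM in ΔRRE. At CT2 it held 0.533 and 0.494 FPKM in WT but 0.0379 and 0.0750 FPKM in ΔRRE, and at CT14 0.565 and 0.0377 FPKM in WT but 1.11 and 0.833 FPKM in ΔRRE. Among all genes above 0 FPKM, the adjusted limma p of *Nupr1* was 0.896 at CT2 and 0.939 at CT14. That of *Phgdh* at CT18 was 0.933. In this fit 0 of the 8 members were called at any single time point, and 69 contrasts of all 28380 genes were. Among genes averaging at least 1 FPKM, the genotypes did not overlap in 31.2% of such contrasts. *Psat1*, *Phgdh* and *Nupr1* are not among those genes, so this share is no direct background for their values.

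In a fit of all 28380 genes above 0 FPKM, *Phgdh* had a 24 h amplitude of 0.45 ± 0.12 (SE, log2) with an adjusted p of 0.0496 by limma. With a mean of at least 0.05 FPKM required, a limit chosen after the values were seen, the adjusted p was 0.057. Its waves gave an exact permutation p of 0.0292 for the difference between the genotypes, which is not adjusted for the 10 genes tested in this way (the 8 members, *Atf4* and *Ddit3*), and an adjusted limma p of 0.979 among all genes above 0 FPKM. *Psat1* (adjusted p = 0.809) and *Nupr1* (adjusted p = 0.919) were not called for a wave in the fit of all genes above 0 FPKM.

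No genotype difference in level over the 6 time points was called in the 5 tested members at an adjusted p under 0.05 (limma; 0% of all genes, although 1002 genes had an unadjusted p under 0.05). The difference, ΔRRE minus WT on the log2 scale, was -0.26 ± 0.48 (SE) for *Asns*, 0.47 ± 0.31 for *Chac1*, 0.39 ± 0.18 for *Sesn2*, 0.18 ± 0.25 for *Ddit4* and 0.06 ± 0.24 for *Trib3*. The median over all genes tested was 0.04. *Sesn2* came closest, with a higher mean in ΔRRE at 5 of 6 time points, an unadjusted p of 0.0446, an adjusted p of 0.543 and an exact permutation p of 0.0572 (two-sided). The other exact permutation p were 0.628 for *Asns*, 0.178 for *Psat1*, 0.647 for *Phgdh*, 0.166 for *Chac1*, 0.523 for *Ddit4*, 0.455 for *Nupr1* and 0.827 for *Trib3*. Most erythroid, acute-phase and glucocorticoid-induced transcripts had differences of the same sign as *Sesn2*, as had 7362 of the 11244 genes tested. At an unadjusted limma p under 0.05, 4 of 5 tested erythroid markers, all of them globin genes, were higher in ΔRRE. So were 12 of 20 acute-phase and 4 of 11 glucocorticoid-induced genes, with 0 called after adjustment. The remaining tested erythroid marker had a difference of 0.08 ± 0.13 (SE). Of all genes tested, 7.16% were higher in ΔRRE and 1.75% lower at this unadjusted p. The part of these transcripts in the value of *Sesn2* was not tested.

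At single time points, 0 of the 30 contrasts of the 5 members passed adjustment over all genes and time points (0.0104% of all contrasts, 7 in all). The libraries of the genotypes did not overlap in 15 of these 30 contrasts, or 50%, where they did not overlap in 31.2% of all contrasts, and with 2 libraries a group no exact test of 1 time point can reach 0.05. Of the 30, 3 had an unadjusted p under 0.05 (4.15% of all contrasts), those of *Chac1* at CT10 and CT22 and of *Asns* at CT2. At CT10 *Chac1* averaged 4.40 ± 0.980 FPKM for ΔRRE against 1.22 ± 0.933 FPKM for WT (SD, n = 2), a log2 difference of 1.96 ± 0.61 (SE). At CT22 it averaged 1.65 ± 0.482 FPKM against 0.514 ± 0.0941 FPKM, a log2 difference of 1.49 ± 0.61, and at CT2 the sign was the other way, with -1.18 ± 0.61. *Asns* at CT2 had a log2 difference of -2.38 ± 1.09, and *Trib3* at CT22 averaged 3.0 ± 0.699 FPKM for ΔRRE against 1.26 ± 0.278 FPKM for WT.

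**Figure D3:**
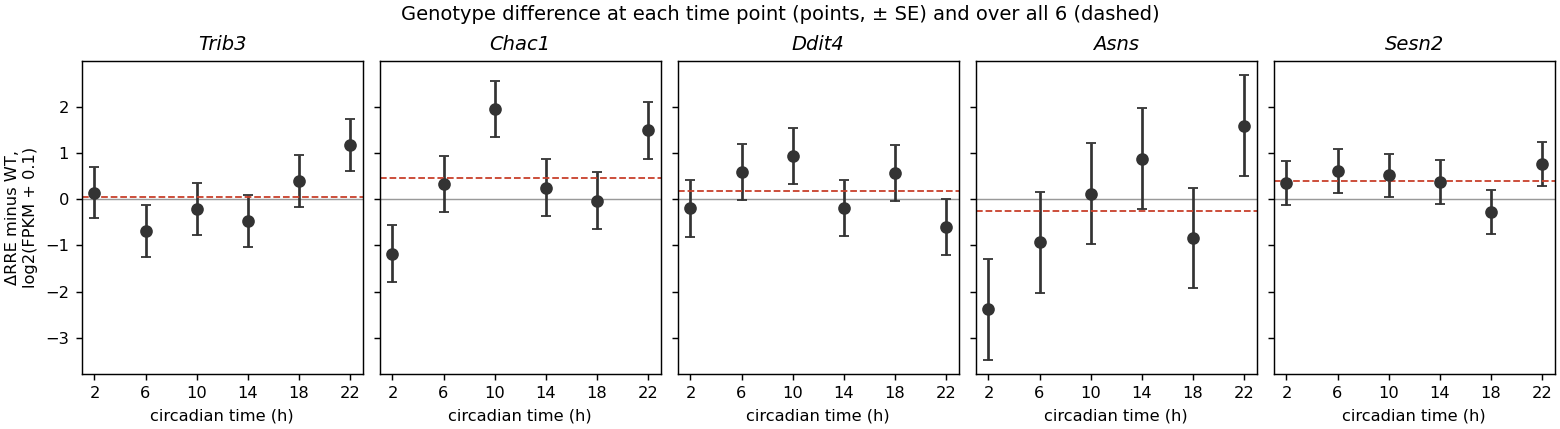
Difference ΔRRE minus WT on the log2(FPKM + 0.1) scale (vertical axis) at each circadian time (horizontal axis, hours) for the 5 tested genes; points are limma contrasts of 2 against 2 libraries with bars of 1 SE, and the dashed line is the difference over all 6 time points. *Chac1* lies highest at CT10, with 1.96, and *Asns* has the widest bars, with an SE of 1.09.

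Upstream of these genes, no daily wave was called for *Atf4* mRNA, while waves of other transcription factors of its network were. *Atf4* lay between 27.5 and 65.4 FPKM, with an amplitude of 0.10 ± 0.07 (SE, log2; adjusted p = 0.479 by limma) and a genotype difference of -0.12 ± 0.09 (exact permutation p = 0.235). *Ddit3*, which encodes CHOP and is itself induced by ATF4, was listed under 2 joined gene identifiers. Its mean was highest at CT14, 19.2 ± 5.17 FPKM (SD, n = 4), and lowest at CT6, 5.86 ± 1.63 FPKM. The 4 libraries of CT14 lay above all 4 of CT18, the next in order, but only narrowly, from 14.7 FPKM against at most 14.6 FPKM. The wave of *Ddit3* was called, with an amplitude of 0.67 ± 0.15 and a peak at CT16.4 (adjusted p = 0.0045). *Atf5*, a relative of ATF4 under similar translational control, peaked at CT2.46 with an amplitude of 0.81 ± 0.09 (adjusted p = 4.61e-06). *Cebpb*, a C/EBP partner of ATF4, peaked at CT12.5 with 0.58 ± 0.10 (adjusted p = 0.000401), and *Ppp1r15b*, a subunit of the phosphatase that reverses eIF2α phosphorylation, at CT17.2 with 0.23 ± 0.04 (adjusted p = 0.000929). Of the 14 tested genes of the list of ATF4 and its regulators, 5 were called for the 24 h wave (35.7%, against 30.6% of all genes), and their peaks were spread over the day.

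**Figure D4:**
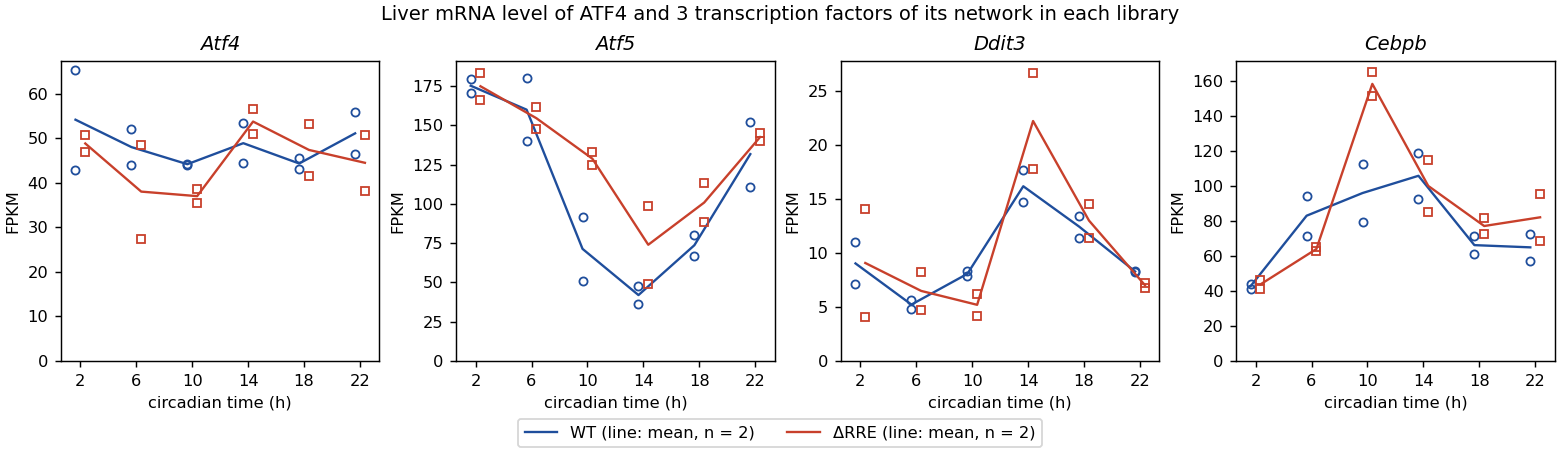
FPKM of *Atf4*, *Atf5*, *Ddit3* and *Cebpb* (vertical axes, linear, each from 0) against circadian time in hours, with 1 point per library, WT as blue circles and ΔRRE as red squares, and lines through the means of 2 libraries. *Atf4* stayed between 27.5 and 65.4 FPKM, whereas *Ddit3* was highest at CT14 and *Atf5* at CT2.

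The other lists of the pathway were described by counts, beside the 30.6% of all genes called for the 24 h wave. They were chosen with earlier results of these data known, so their shares are descriptions and not tests of the lists. Of 12 tested serine and one-carbon enzymes, 5 were called for the 24 h wave (41.7%), led by *Cbs*, which condenses homocysteine with serine, with a peak at CT3.65 and an amplitude of 0.56 ± 0.07 (SE, log2; adjusted p = 1.55e-05 by limma). In the same list *Gpt2*, an alanine aminotransferase, peaked at CT13.8 (adjusted p = 0.00138) and *Shmt1*, which interconverts serine and glycine, at CT23.5 (adjusted p = 0.00729). *Psph*, the last enzyme of serine synthesis, was present at 3.53 FPKM, above *Psat1* and *Phgdh* of the same route.

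Of 9 tested amino acid transporters, 6 were called (66.7%, against 30.6% of all genes). The glutamine transporter *Slc38a3* peaked at CT9.5 with an amplitude of 0.57 ± 0.06 (adjusted p = 6.44e-07). *Slc38a2*, a transporter that ATF4 induces, peaked at CT9.88 (adjusted p = 0.00181) and had a genotype difference of 0.40 ± 0.10 (adjusted p = 0.332), and the glycine transporter *Slc6a9* peaked at CT12.8 (adjusted p = 0.003).

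Of 20 cytosolic tRNA synthetases, 5 were called (25%, against 30.6% of all genes), with *Tars*, the threonyl-tRNA synthetase, as the largest at 0.70 ± 0.07 and a peak at CT23.9 (adjusted p = 3.16e-07). *Sars*, the seryl-tRNA synthetase, and *Lars*, the leucyl-tRNA synthetase, peaked at CT8.88 and CT6.33 with amplitudes of 0.19 ± 0.04 and 0.22 ± 0.06.

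Among other ATF4 targets 7 of 9 tested were called (77.8%, against 30.6% of all genes), in a list chosen with earlier results of these data known. *Ndrg1*, a stress and differentiation gene, peaked at CT1.94 with 1.61 ± 0.12 (adjusted p = 9.25e-09), the autophagy receptor *Sqstm1* at CT2.73 (adjusted p = 1.88e-05), and *Eif4ebp1*, a repressor of translation initiation and mTORC1 substrate, at CT10.2 (adjusted p = 0.000263). *Fgf21*, a hepatic stress hormone that ATF4 induces, was at 0.117 FPKM on average and was not tested.

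Of 19 tested genes of mTORC1 amino acid sensing, 10 were called (52.6%, against 30.6% of all genes), all with peaks between CT0 and CT12, as had 60.7% of all called genes. *Sesn3*, a relative of *Sesn2*, peaked at CT1.67 with 0.35 ± 0.06 (adjusted p = 0.00117), *Mios*, of the GATOR2 complex, at CT5.66 with 0.27 ± 0.06 (adjusted p = 0.00282), and *Mtor*, the kinase itself, at CT9.29 with 0.34 ± 0.06 (adjusted p = 0.00108). Of the paralogues, *Trib1* peaked at CT13.8 with 0.31 ± 0.06 (adjusted p = 0.0014), and *Trib2* averaged 0.283 FPKM. In none of these lists was a gene called for a genotype difference in level. The median genotype difference of the lists ranged from -0.05 for the paralogues to 0.12 for the serine and one-carbon enzymes.

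The 8 genes did not form 1 block across the 24 libraries. *Psat1*, *Phgdh* and *Nupr1* averaged under 1 FPKM and were left out of the main fits, so the r of their pairs are uncertain. Over their 28 pairs, Pearson's r of log2(FPKM + 0.1) ranged from -0.752 to 0.653, with a median of 0.0672, and was above 0 in 17 pairs. The highest was that of *Trib3* and *Chac1* (r = 0.653, Spearman's rho = 0.676), 0.598 within WT and 0.788 within ΔRRE. Within time points the pair showed no such relation. With libraries permuted within time points the p was 0.923 for r and 0.746 for rho (100000 permutations, adjusted p = 0.972 and 0.922), and the r of the deviations from the group means was -0.231. The lowest was that of *Ddit4* and *Trib3* (r = -0.752, rho = -0.675), with r = -0.677 without the 2 libraries farthest from the median of *Ddit4* and r = -0.577 between the deviations. Its permutation p were 0.0179 and 0.0314 (adjusted 0.17 and 0.293). The 2 deviations of a group mirror each other, so an r of deviations rests on 12 differences. *Trib3* was higher in replicate 1 in 10 of 12 groups and *Ddit4* in replicate 2 in 9 of 12. The part of the replicate number in the r of this pair was not tested. *Asns* and *Psat1* had r = 0.517 and rho = 0.510 (permutation p = 0.0182 and 0.0194, adjusted 0.17 and 0.272), r = 0.418 without the 2 libraries farthest from the median of *Asns*, and r = 0.612 between the deviations.

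After adjustment over the 28 pairs, 1 pair passed for r, *Chac1* and *Nupr1* (r = 0.318, permutation p = 0.00162, adjusted p = 0.0454), and 0 passed for rho, where this pair had 0.268 (permutation p = 0.00454, adjusted p = 0.127). Its r was 0.364 without the 2 libraries farthest from the median of *Chac1* and 0.488 between the deviations, and *Nupr1* averaged only 0.502 FPKM. The permutation kept the time point of each library and not its genotype. Its p therefore leaves out shared time courses, but genotype differences that both genes share enter it. The call was lost without any 1 of 22 of the 24 libraries, all but the WT libraries of CT10.

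**Figure D5:**
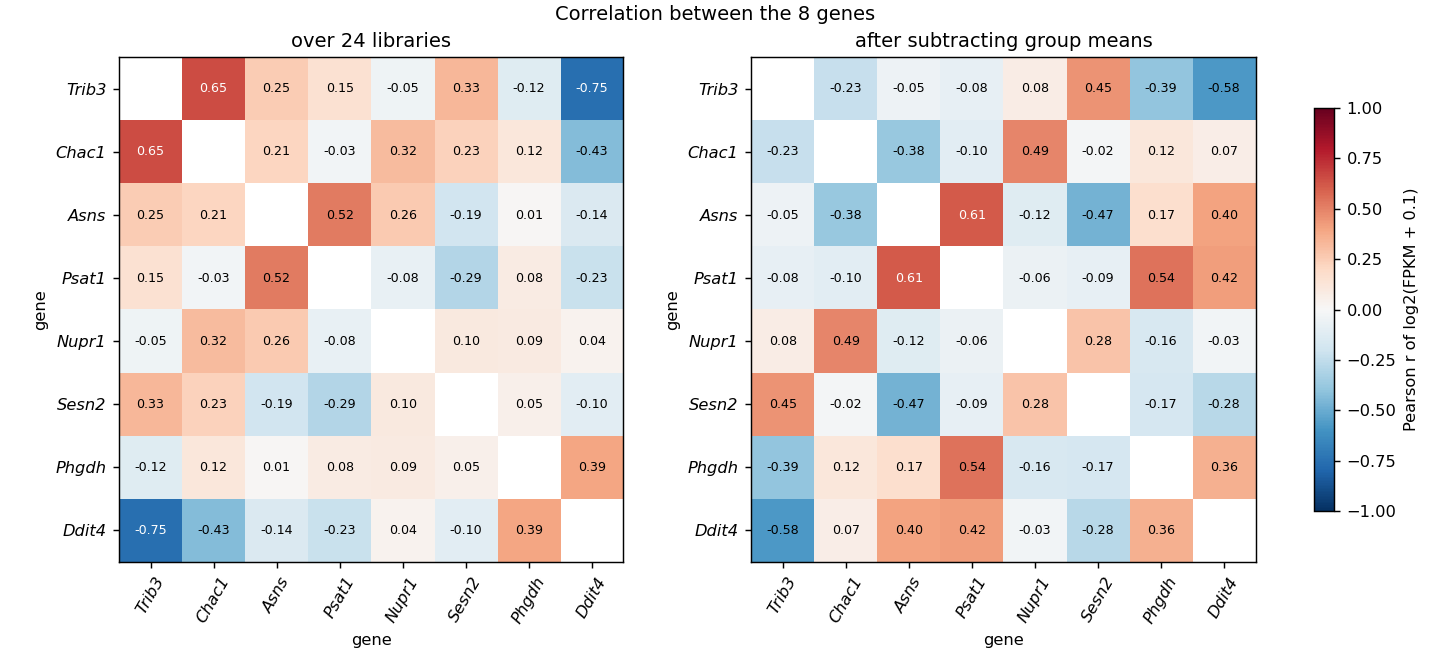
Pearson r between the 8 genes (both axes) over 24 libraries, left on log2(FPKM + 0.1) and right after the mean of each genotype and time point was subtracted, on a colour scale from -1 to 1. On the right, the 2 values of a group mirror each other, so each r rests on 12 differences. *Trib3* and *Chac1* change from 0.65 to -0.23, whereas *Trib3* and *Ddit4* stay negative, at -0.75 and -0.58.

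Over all 11244 genes tested, the 2 genes whose pattern across the 24 libraries was most like that of *Trib3* were *Fbxo21* (r = 0.933) and *Leprot* (r = 0.91). For *Chac1* they were *Mtx3* (r = 0.807) and *Wdsub1* (r = 0.785), for *Ddit4* *Ppp1r3b* (r = 0.853) and *Skil* (r = 0.848), and for *Sesn2* *Igfbp1* (r = 0.759) and *Irs2* (r = 0.746). None of the 8 genes was among the most alike genes of these 4. These r are descriptions over libraries that share their time points and genotypes.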

How the data were processed

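Liver RNA of 24 libraries was measured by RNA-seq. The authors prepared directional poly(A) libraries and deposited, for each library, the FPKM of 54733 genes without pooling. The submitters' processing notes name Trimmomatic 0.39, HISAT2 2.1.0, StringTie 1.3.5 and mm10; how they were set is not given in the sources used here. FPKM depend on the transcript models and on the other transcripts of a library, and a whole-series table with the same values was not used. Samples were grouped by genotype and time in their titles.

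The members and the gene lists were chosen with earlier results of these data known. From the FPKM, log2(FPKM + 0.1) was computed, without further scaling, for genes whose mean reached 1 FPKM (11244 genes), and limma 3.58.1 (R 4.3.3) was used with a trended prior. A cosine and a sine of 24 h were tested in each genotype and in both, 12 h terms beside them, the genotype term with time point as a factor, the genotype by wave terms, and 12 group means for single time points, each with Benjamini-Hochberg adjustment over all genes tested (and time points). BIO_CYCLE was not run. Since 0.1 FPKM was added, fold changes of low genes are understated. Exact permutation tests, two-sided for levels, used all 46656 divisions of the libraries within time points, and pair correlations used 100000 permutations within time points. The p-values measure the spread between these libraries; nothing in the labels says more of how the 2 of a group were obtained.

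The genes named were the 8 members, *Atf4*, *Ddit3* and *Bmal1*, at most 3 genes per pathway list with the smallest p for the 24 h wave among those called, and the 2 genes most like each tested member (not reported here for *Asns*). *Fgf21*, *Psph*, *Trib2*, *Cela1* and *Cela2a* were named in addition after their values were seen. Of the 10 hepatocyte markers listed, 9 were matched. Lists of Kupffer cell, endothelial, stellate cell, cholangiocyte and glucocorticoid-induced genes were also examined. Positions come from GENCODE M21 (GRCm38, the assembly of mm10), which holds 54528 of the 54733 identifiers, and start windows from RefSeq. The models were tested on simulated data. Python 3.11.15, NumPy 2.4.6, SciPy 1.17.1, pandas 2.3.3 and matplotlib 3.10.9 were used. Alternatives were 1 or 0.01 FPKM added, other limits on low values, rescaling by the median of ratios, a prior without trend, the replicate number as a block, the time point as a factor, a shared spread, and leaving out each library or time point.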

Additional observations from a re-analysis of the deposited data

How the results depend on the processing

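The count of members called for the 24 h wave in WT, 3 of 5, was 1 with all genes above 0 FPKM, with a mean of at least 5 FPKM (where only *Ddit4* is tested), with a mean of at least 0.05 FPKM (chosen after seeing the data), and without CT6, CT10 or CT22, and ranged from 1 to 3 without each library in turn. Of all genes, 519 of 28380 were called above 0 FPKM, 891 of 6617 with at least 5 FPKM and 986 of 19095 with at least 0.05 FPKM. The count in WT was 2, without *Chac1*, after rescaling by the median of ratios (adjusted p = 0.0524), with the time point as a factor (0.207) and with a shared spread (0.228). Of all 11244 genes, 1128, 361 and 1350 were called in WT in these 3 fits. In ΔRRE the count was 1 and not 0 with the time point as a factor (*Chac1*, with 353 of 11244 genes called) and without CT22 (*Trib3*), and 0 without any 1 library. All 8 members enter the fits with all genes above 0 FPKM or at least 0.05 FPKM. By the criteria of the methods, the 3 members of WT became 5 of 8 in these fits, *Chac1*, *Ddit4*, *Phgdh*, *Psat1* and *Trib3*. Of all genes 9297 of 28380 and 7441 of 19095 passed there. The WT count was 1 with at least 5 FPKM (3 to 4 without each library). In ΔRRE the 5 of 5 became 5 of 8 with all genes above 0 FPKM, *Chac1*, *Ddit4*, *Nupr1*, *Phgdh* and *Trib3* (8776 of 28380 genes). With at least 0.05 FPKM they became 7 of 8, all but *Psat1* (7107 of 19095 genes). The ΔRRE count was 1 with at least 5 FPKM, 3 without CT2 or CT18 and 1 without CT10 (2 to 5 without each library). Over both genotypes the 3 calls became 1 with at least 5 FPKM (2347 of 6617 genes called) and without CT10, and 2 to 3 without each library. With all genes above 0 FPKM the 3 were *Ddit4*, *Phgdh* and *Trib3*, and 3199 of 28380 genes were called. *Chac1* was also lost over both genotypes without CT6 (adjusted p = 0.156), CT14 (0.0577) or CT18 (0.186), and without CT10 the lost calls were *Chac1* (0.0593) and *Ddit4* (0.105). The single 12 h call became 0 with all genes above 0 FPKM (122 of 28380 genes called), with at least 5 FPKM (322 of 6617) and without any 1 time point, and 0 to 2 without each library. The single pair of members became 0 with 1 or 0.01 FPKM added, with deviations from the group means and without CT2, CT6, CT14, CT18 or CT22, and 0 to 1 without each library. The causes were not tested, except that fewer members or libraries enter the stricter fits. Counts of 0 for genotype differences stayed at 0 under every alternative run, and the 39 called genes of the pathway lists stayed within 1.5 times.

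The genotype difference of *Asns* turned from -0.26 to 0.16 without CT2, and that of *Trib3* from 0.06 to -0.01 without CT18, to -0.17 without CT22, and to between -0.04 and 0.17 without each library; none was called. The labels do not say what a replicate number shares, and the data did not show that it pairs all samples: deviations of same-numbered WT and ΔRRE libraries correlated from -0.119 to 0.206 over the 6 time points. With the replicate number as a block, 2 members were called in WT (without *Chac1*, adjusted p = 0.0511) and 3 for the 12 h wave (*Chac1*, *Sesn2* with an adjusted p of 0.0457 and *Trib3* with 0.0351; 474 genes in all against 343 without the block), and the other counts of members stayed within 1.5 times. Low FPKM and an unknown depth limit what can be said of *Psat1*, *Phgdh* and *Nupr1*.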

Other observations

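Genes induced by glucocorticoids, a list with no gene in common with the 8 genes above, were called for the 24 h wave in 9 of 11 cases (81.8%, against 30.6% of all genes), 7 of them with a peak between CT12 and CT24, as had 39.3% of all called genes. Of the non-hepatocyte lists, 4 of 10 endothelial and 4 of 8 tested stellate cell markers were called, 0 of 10 Kupffer cell markers, and 2 of 3 tested cholangiocyte markers. At CT6 and CT10, where *Trib3* was high, the stellate cell sum ranged from 53.7 to 90.7 FPKM and elsewhere from 63 to 141.2 FPKM; its part in the values of the members was not tested.

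*Trib3* was higher in the library numbered 1 than in that numbered 2 in 10 of 12 groups, and *Sesn2* in 9 of 12, while *Ddit4* was higher in the library numbered 2 in 9 of 12. Of all genes tested, 5.16% were higher in library 1 in at least 10 groups and 4.46% in at most 2. This was noticed after the values were seen, and what the replicate numbers share is not given in the labels.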
